A study of Mus musculus with 6 samples.

Results

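The canonical poly(A) signal was the hexamer deposited for 946527 of the 2333467 cleavage positions listed outside chromosome M in mouse embryonic stem cells. These positions held 70.4% of the reads. The positions of all 6 libraries were pooled by chromosome, coordinate and strand, and the 36 hexamers deposited with them were ranked by their reads. Every position with the top-ranked hexamer was taken, and no position was chosen by its response to treatment. The other 35 hexamers shared the remaining 1386940 positions. Because reads ranked the hexamers, the share of reads at AATAAA describes the choice and is no finding. The 4 hexamers with the most reads, which show how far the top one led, were these.
Rank 1, 946527 positions and 70.4% of reads: AATAAA
Rank 2, 344196 positions and 17.2% of reads: ATTAAA
Rank 3, 88640 positions and 3.11% of reads: AGTAAA
Rank 4, 107881 positions and 2.01% of reads: TATAAA

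The study sequenced 3′ ends of poly(A)+ RNA in V6.5 cells, an embryonic stem cell line of C57BL/6-129 background. There were 3 groups of 2 biological replicates: cells given an antisense morpholino oligonucleotide (AMO) against U1, cells given a scrambled AMO, and untreated cells. The comparison asks how the use of cleavage sites differs when the U1 small nuclear ribonucleoprotein is blocked. All groups come from a single cell line, so the replicates do not sample other lines or animals.

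In RNA the signal reads AAUAAA. It is bound by the cleavage and polyadenylation specificity factor through its subunits CPSF30 and WDR33, and the subunit CPSF73 cuts the transcript a short way downstream before poly(A) polymerase adds the tail. U1 base-pairs with 5′ splice sites through its small nuclear RNA, and it is also known to suppress cleavage at poly(A) signals inside transcribed regions. An AMO complementary to the 5′ end of that RNA blocks this pairing without destroying the particle.

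Outside chromosome M the libraries held 15413148 and 57217428 reads in U1 AMO cells, 26415700 and 61726804 in scrambled AMO cells, and 38331615 and 60261221 in untreated cells (replicates 1 and 2). Read names placed replicate 1 of both AMO groups in one sequencing run and replicate 2 of both in another, while each untreated library had a run of its own. Untreated cells and their runs therefore cannot be told apart. In the AMO groups run and biological replicate coincide, so they cannot be told apart, and run below stands for both. Depth goes with them: replicate 1 had fewer reads than replicate 2 in both AMO groups. The AMO libraries of replicate 1 also shared a lane. In replicate 2 the U1 AMO library was in lane 2 and the scrambled AMO library in lane 1, so lane and AMO cannot be told apart there. Untreated replicate 2 stood apart: 15.6% of its AATAAA positions had a single read, against 32.3% to 43.2% in the other 5 libraries. Levels are CPM, counts scaled to the reads of each library outside chromosome M. In bulk RNA, a site used in fewer cells and a site used less in each cell cannot be told apart. No mm9 annotation was used, so sites are given by mm9 coordinate without gene names, and the cell type was not checked against its markers. Without an annotation, cleavage inside transcribed regions could not be set apart, so the label of the U1 AMO libraries was not checked either.

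Of the values deposited with each position, the first is the distance from hexamer to cleavage position, 6 to 40 nt. The sources used here do not say from which base it is counted. The second, called column 8 below, is a whole number from 0 to 10, and its meaning is not given either. The hexamer was not always the nearest. Among 13062 AATAAA positions that also had a listed ATTAAA 6 to 40 nt upstream, ATTAAA was the nearer in 6084. Where a second listed AATAAA lay in range, the deposited one was the nearer in 29000 of 29000 cases. No position given another hexamer had a listed AATAAA in that range. In these lists AATAAA thus took precedence over other hexamers, and its positions include some with a closer variant hexamer.

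Cleavage fell in a narrow window downstream of AATAAA. Averaged over the 6 libraries, 12.1% of AATAAA reads ended 19 nt from the hexamer, 11.7% ended at 20 nt and 10.9% at 21 nt. By 16 nt 4.88% of the reads had ended, by 21 nt 51.5%, and by 28 nt 92.1%. The distinct positions were spread more widely than the reads: an AATAAA position at 19 nt held 366 reads on average over the pooled libraries, against 12.6 at 6 nt and 29.8 at 40 nt. A small separate maximum lay at 11 nt, with 0.401% of reads, against 0.294% at 12 nt and 0.239% at 13 nt. At 11 nt the share was 0.563% and 0.345% in U1 AMO cells, 0.520% and 0.265% in scrambled AMO cells, and 0.317% and 0.396% in untreated cells. The AMO libraries of replicate 1 were the highest at 11 nt, and the groups overlapped.

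**Figure D1:**
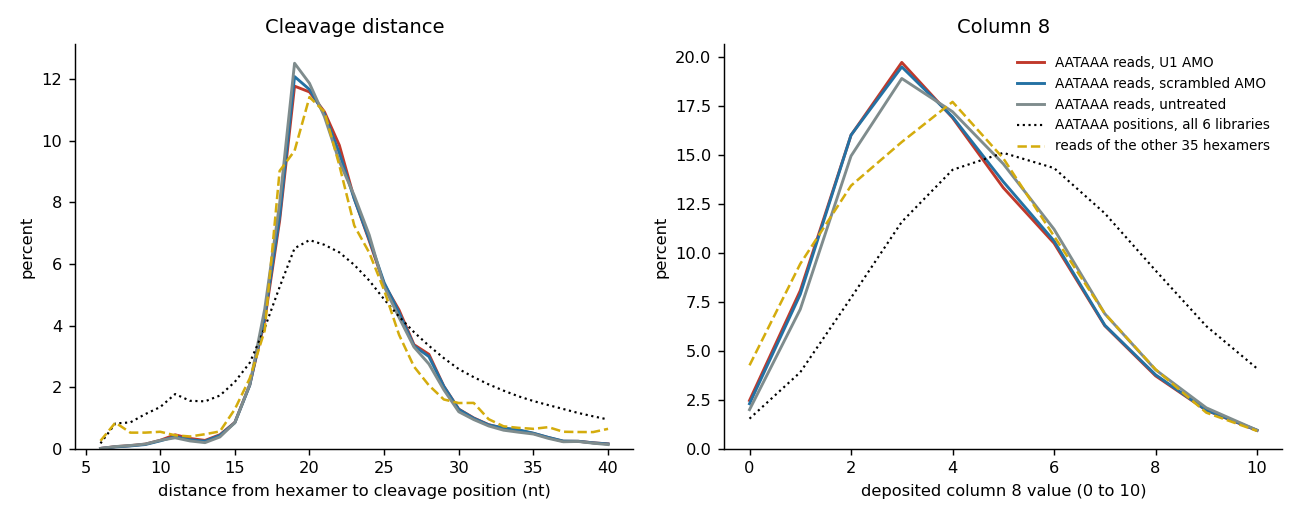
Left, percent of AATAAA reads (solid lines, mean of 2 libraries per group) and of distinct AATAAA positions (dotted) by distance in nt from hexamer to cleavage position, with reads of the other 35 hexamers dashed (mean of 6 libraries). Right, the same by the deposited column 8 value; the 3 group lines nearly coincide, with modes at 19 nt and at a value of 3, while positions peak at a value of 5.

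Column 8 was lower at strongly used AATAAA positions than at weakly used ones. Reads peaked at a value of 3, with 19.4% of AATAAA reads, whereas distinct positions peaked at 5, with 15.1%. A position with value 2 held 391 reads on average, and one with value 10 held 43.7. Values of 9 and 10 took 6.27% and 4.10% of the positions but only 2.01% and 0.945% of the reads. Column 8 and distance were also related: the mean distance of AATAAA positions was 24.2 nt at value 1 and 20.4 nt at value 10.

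AATAAA elements were defined as the single genomic hexamers to which positions were assigned, found from coordinate and distance. There were 308468, and 172605 of them (56.0%) had 1 listed position. The largest number of positions around a single element was 35, the whole range of listed distances. Use was concentrated: 613 elements held 50% of all AATAAA CPM, and the 100 highest held 24.2%. In 36314 elements reads were present in all 6 libraries, while 157560 appeared in a single library. Position by position, 482611 AATAAA positions (51.0%) were listed in 1 library and held 0.393% of AATAAA reads. Another 126246 (13.3%) were listed in all 6 and held 96.5%.

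Stronger elements had more listed positions, and their strongest position lay in the usual window more often, at the same median distance. Elements under 0.1 CPM numbered 260840 with a median of 1 position, and the 1374 elements of at least 100 CPM had a median of 23; more reads also allow more positions to be listed. The median share of reads at the strongest position was 48.9%, 46.0%, 46.8% and 48.2% in the 4 classes from 0.1 CPM up. The strongest position lay at a median of 21 nt in all 5 level classes. It lay 16 to 28 nt from the hexamer in 67.9% of elements under 0.1 CPM, 75.3% at 0.1 to 1 CPM, 82.5% at 1 to 10 CPM, 89.0% at 10 to 100 CPM and 92.4% at 100 CPM or more. In the same order, column 8 at that position was 8 to 10 in 27.98%, 23.1%, 19.5%, 11.4% and 6.99% of elements. A class with few reads per element gives its strongest position less precisely, and the part of this in the trend was not tested.

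The element with the highest mean level lay on the minus strand, with cleavage at chr4:3761600-3761630 (31 positions, 55.1% of reads at the strongest, 20 nt). It had 9568 and 10810.2 CPM in U1 AMO cells, 10689.7 and 10155 CPM in scrambled AMO cells, and 8410.1 and 4972 CPM in untreated cells. Untreated replicate 2 was the lowest, and the AMO groups overlapped. Its mean distance stayed between 20.7 and 20.9 nt in all 6 libraries. The next was the plus-strand element at chr14:25315076-25315095, with 15 positions and 55.6% of reads at 19 nt. It had 5302 and 7808 CPM in U1 AMO cells, 7380.5 and 8419 CPM in scrambled AMO cells, and 4749.8 and 6191 CPM in untreated cells. The U1 AMO range overlapped both others, while both scrambled AMO libraries lay above both untreated ones. The minus-strand element at chr9:61761070-61761104 varied least of the 6 highest, at 6499 ± 342 CPM (SD, n = 6 libraries), with 70.6% of its reads at 19 nt. The other 3 were at chr5:143664787-143664817 (minus, 6129 ± 2905 CPM), chr15:76736728-76736758 (plus, 6115 ± 890.3 CPM) and chr11:48619577-48619610 (plus, 5899.6 ± 666 CPM). Those means and SDs are again over 6 libraries.

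Among the 1346 elements of at least 100 CPM off chromosome 18, the number of positions ran from 14 at the 5th percentile to 31 at the 95th. The plus-strand element at chr8:96697446-96697480 was cut at all 35 listed distances, with 61.4% of its reads at 22 nt. It had 6387 and 10371.9 CPM in U1 AMO cells, 3779 and 6259.6 CPM in scrambled AMO cells, and 1828 and 1729 CPM in untreated cells, and the ranges of the 3 groups did not overlap. The minus-strand elements at chr17:35971731-35971765 and chr10:128061575-128061609 also had 35 positions, with 56.3% and 80.6% of reads at the strongest. At the other extreme, the minus-strand element at chrX:123199800-123199804 had 4 positions and 97.8% of its reads at 24 nt, at 635 ± 201 CPM (SD, n = 6 libraries). The plus-strand element at chr6:35197595-35197598 had 4 positions and the minus-strand one at chr16:35573351-35573355 had 5, with 88.7% and 76.1% of reads at the strongest. Elements of high level thus differed widely in how scattered their cleavage was.

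AATAAA and the other hexamers placed cleavage at nearly the same distance. The read-weighted mean was 22.1 nt at AATAAA and 22.0 nt at the other 35 hexamers, a difference of 0.0898 nt that was positive in 5 of 6 libraries (exact sign-flip permutation test over libraries, two-sided, p = 0.0625, and 0.0781 after Benjamini-Hochberg adjustment over 5 measures). AATAAA elements had 3.15 distinct positions per library, against 2.05 for elements of the other hexamers, a difference of 1.10 ± 0.0843 (SD, n = 6) present in 6 of 6 libraries. The share of reads at 10 to 25 nt was 81.1% against 78.8%, again higher in 6 of 6. These last differences each gave p = 0.03125, the smallest that the exact sign-flip permutation test over 6 libraries can give, and 0.0781 after adjustment over the 5 measures. AATAAA positions were also listed in both libraries of a group more often, at 59.2% against 44.8%, a mean difference of 14.4 percentage points. The libraries of a group share that set of positions, so this measure has 3 independent values, and p = 0.25 is the smallest that the exact sign-flip permutation test can give for it. Mean column 8 was 4.032 against 4.0025, higher at AATAAA in 5 of 6 libraries (adjusted exact permutation p = 0.0781). Positions per element and presence in both libraries rise with reads, and the hexamers were ranked by reads. The part of level in those differences was not tested. The 6 libraries come from a single cell line, and positions listed in all 6 held 96.5% of AATAAA reads. The sign-flip tests thus repeat readings of largely the same sites, and other sites or lines were not sampled.

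Against ATTAAA alone, distance, column 8, positions per element and the share of reads at 10 to 25 nt each had a single sign of difference across 6 of 6 libraries (adjusted exact sign-flip permutation p = 0.0391 for each). The libraries again read largely the same sites, so these p-values do not extend to other sites or lines. AATAAA positions lay 0.271 nt farther from the hexamer in the read-weighted mean. AATAAA took precedence where both hexamers were listed, and 6084 AATAAA positions had a nearer ATTAAA. The part of this rule in the distance and in the share at 10 to 25 nt was not tested. Column 8 at AATAAA positions was higher by 0.203 and positions per element by 0.278. The part of level in positions per element was not tested. Presence in both libraries was higher by 3.38 percentage points (exact sign-flip permutation p = 0.25 over 3 groups, the smallest possible). The share of reads at 10 to 25 nt was lower at AATAAA by a difference of -2.74 percentage points, the reverse of the direction against all other hexamers.

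The share of reads at AATAAA differed less between the AMO groups than between replicates of either group. It was 71.6% and 70.5% in U1 AMO cells, 71.2% and 70.4% in scrambled AMO cells, and 69.8% and 70.1% in untreated cells. U1 AMO minus scrambled AMO was 0.279 percentage points, and 0.462 and 0.0950 within the 2 runs (exact permutation test, two-sided, p = 0.667). Both AMO groups lay above untreated cells, with differences of 1.10 and 0.820 percentage points for the U1 and scrambled AMO (exact permutation p = 0.333 for each). With 2 libraries against 2, p = 0.333 is the smallest that this exact test allows, so no difference of this kind can pass 0.05. The difference from untreated cells was 0.236 and 0.287 points for the U1 and scrambled AMO when chromosome M reads were kept in the total, and turned to -1.86 and -2.54 points when distinct positions were counted at equal depth.

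The difference in cleavage distance between the AMO groups was likewise smaller than the spread between replicates. The read-weighted mean was 22.09 and 22.14 nt in U1 AMO cells, 22.06 and 22.16 nt in scrambled AMO cells, and 22.20 and 21.79 nt in untreated cells. U1 AMO minus scrambled AMO was 0.00300 nt, and 0.0335 and -0.0275 nt within runs (exact permutation p = 1). The difference from untreated cells, 0.121 nt for the U1 AMO, turned to -0.0869 nt without untreated replicate 2, the lowest library. To remove changes in which elements were used, the distance was averaged over 7044 elements of at least 10 CPM with reads in all 6 libraries. This mean was 22.334 and 22.325 nt in U1 AMO cells, 22.291 and 22.349 nt in scrambled AMO cells, and 22.417 and 22.265 nt in untreated cells. U1 AMO minus scrambled AMO was 0.00950 nt, again of opposite sign in the 2 runs (0.0429 and -0.0239 nt, exact permutation p = 1). With the U1 AMO, 2197 elements had a longer mean distance in both runs and 1519 a shorter one, while 3328 went opposite ways or did not move. Differences between elements were far larger, with mean distances of 17.6 nt at the 5th percentile and 29.0 nt at the 95th. A single element ranged over the 6 libraries by a median of 0.452 nt.

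Mean column 8 of AATAAA reads was 4.005 and 3.948 in U1 AMO cells, 4.038 and 3.964 in scrambled AMO cells, and 4.005 and 4.231 in untreated cells. U1 AMO minus scrambled AMO was -0.0245, and -0.0328 and -0.0161 within runs (exact permutation p = 0.667). The difference from untreated cells was -0.141 (exact permutation p = 0.333) and -0.0284 without untreated replicate 2. Reads at values of 8 to 10 made up 6.91% and 6.35% in U1 AMO cells, 7.10% and 6.33% in scrambled AMO cells, and 6.49% and 7.68% in untreated cells, and all groups overlapped.

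**Figure D2:**
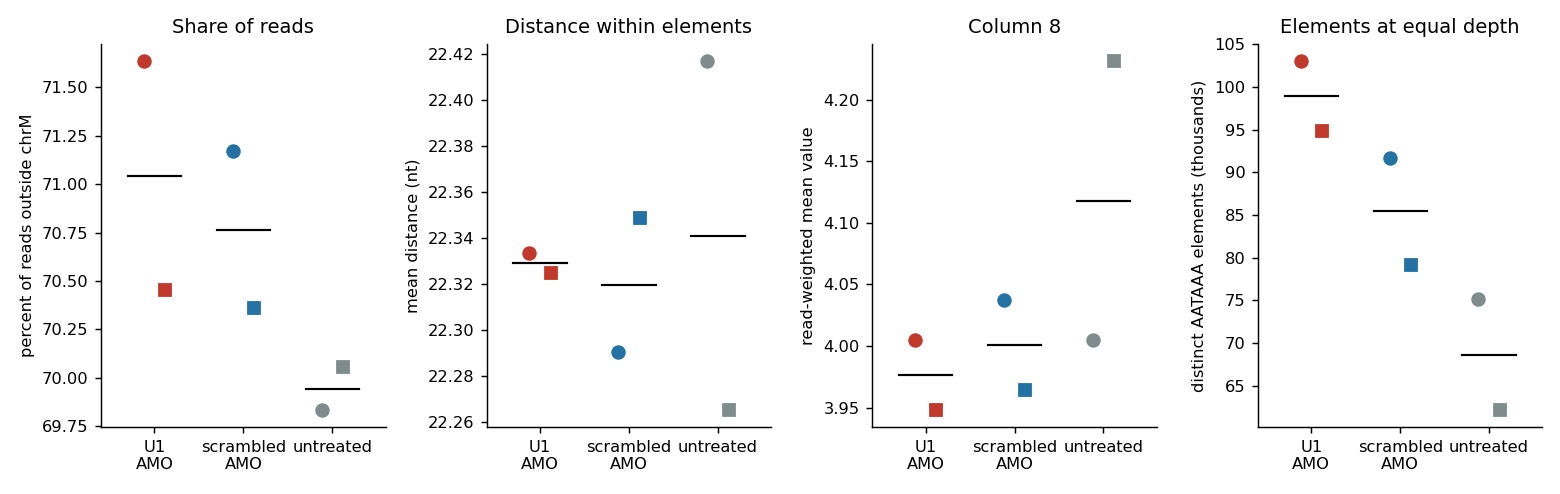
Each point is 1 library (circles replicate 1, squares replicate 2) and each horizontal line a group mean, for the percent of reads at AATAAA, the mean distance in nt within shared elements, the read-weighted mean column 8 and the number of AATAAA elements at equal depth. The axes do not start at 0; only the number of elements has 3 groups that do not overlap, from 102987 and 94866 with the U1 AMO to 75129 and 62151 in untreated cells.

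More AATAAA elements were detected with the U1 AMO at equal depth. After every library was thinned to 15413148 reads, 102987 and 94866 elements were found in U1 AMO cells, 91666 and 79154 in scrambled AMO cells, and 75129 and 62151 in untreated cells. The ranges of the 3 groups did not overlap, and the U1 AMO library exceeded the scrambled AMO library of its run by 11321 and 15712 elements. Each pair of groups gave p = 0.333, the smallest possible (exact permutation test). In each group the library with more reads before thinning gave fewer elements. In each run the U1 AMO library had fewer reads before thinning than the scrambled AMO library. The part of original depth in the order of the groups was not tested. Distinct positions followed at 343835 and 304206 in U1 AMO cells, 304382 and 257240 in scrambled AMO cells, and 257061 and 188275 in untreated cells. There the AMO groups overlapped narrowly, with U1 AMO replicate 2 just below scrambled AMO replicate 1. The other hexamers had the same order of group means, with thinned positions of 334598 and 330853 in U1 AMO cells, 310245 and 282076 in scrambled AMO cells, and 252518 and 174845 in untreated cells.

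Weak elements held more of the reads with the U1 AMO within each run. Elements under 10 CPM held 8.45% and 6.97% of AATAAA reads in U1 AMO cells, 7.03% and 5.77% in scrambled AMO cells, and 6.42% and 6.93% in untreated cells. Within runs the U1 AMO was higher by 1.424 and 1.202 percentage points, but across runs the AMO groups overlapped (exact permutation p = 0.667). In the class of 0.1 to 1 CPM the shares were 1.92% and 1.45% in U1 AMO cells, 1.32% and 1.01% in scrambled AMO cells, and 1.09% and 1.17% in untreated cells, and the U1 AMO libraries were the 2 highest. In elements of at least 100 CPM they were 65.1% and 67.8% in U1 AMO cells, 64.8% and 67.7% in scrambled AMO cells, and 65.1% and 62.6% in untreated cells. In that class the AMO libraries differed by run, and so by replicate number, more than by AMO.

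**Figure D3:**
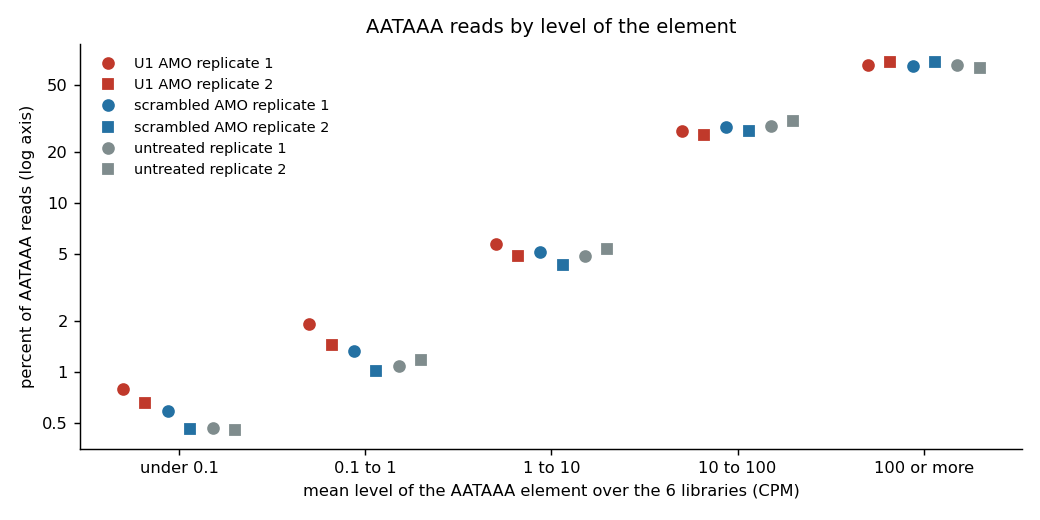
Percent of AATAAA reads (log axis) in elements of 5 level classes, by mean CPM over the 6 libraries, with 1 point per library. Below 1 CPM the 2 U1 AMO libraries are the highest, and at 100 CPM or more the AMO libraries pair by replicate number, 65.1% and 64.8% in replicate 1 and 67.8% and 67.7% in replicate 2.

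To test single sites, neighbouring positions of a strand, up to 24 nt apart, were merged into 931675 clusters. A cluster counted as AATAAA when its strongest position carried that hexamer. There were 298430 such clusters, holding 99.7% of AATAAA reads. The filter on low counts kept 80119 clusters, 39557 of them AATAAA. It asks for enough reads in 2 libraries, so a cluster can pass through a single group where it is high. Those 39557 and the other tested clusters that hold some AATAAA positions contained 474496 of the 946527 AATAAA positions and 99.4% of AATAAA reads. The remaining positions were too weak to test.

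With the U1 AMO, 245 AATAAA clusters rose against the scrambled AMO and 0 fell (edgeR quasi-likelihood test over 3 groups, Benjamini-Hochberg adjusted p under 0.05). The 245 were 0.619% of the AATAAA clusters tested, near the 0.565% of all tested clusters that rose. At an unadjusted p under 0.05, 3649 AATAAA clusters were higher and 36 lower. Unchanged clusters can also pass an unadjusted threshold, so these are not calls. No count over all clusters was made at that threshold. DESeq2 called 1626 rises, 4.11% of AATAAA clusters, where 3.86% of all clusters rose, and again gave 0 falls. It gave no adjusted p for 6214 of all 80119 clusters, which stay in these shares. The raised clusters had few reads in the other groups, which the filter allows and the call against the scrambled AMO favours. Their median level was 11.2 and 8.44 CPM in U1 AMO cells, 0.114 and 0.0810 CPM in scrambled AMO cells, and 0.0261 and 0 CPM in untreated cells. Together they took 0.456% and 0.350% of reads in U1 AMO cells, 0.0193% and 0.0168% in scrambled AMO cells, and 0.0110% and 0.0130% in untreated cells. In 78 of them the scrambled AMO libraries had at most 3 reads in all, and the U1 and scrambled AMO libraries did not overlap in any of the 245, a separation that the call largely fixes. They did not overlap in 35.9% of uncalled AATAAA clusters either. Their strongest position lay a median of 21 nt from AATAAA and within 16 to 28 nt in 89.8%, against 80.3% of uncalled clusters. Column 8 there was 8 to 10 in 10.6%, against 19.5% of uncalled clusters; raised clusters were also more abundant than uncalled ones, and the part of level was not tested. The count rested on single libraries. It rose without U1 AMO replicate 1 or either untreated library, and fell without U1 AMO replicate 2 or scrambled AMO replicate 1. Without scrambled AMO replicate 2 all calls were lost. Each such fit leaves 1 library in a group and filters the clusters anew, so these counts are not given.

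The AMO libraries of the same run deviated together from their group means (r = 0.802 across 29533 clusters, which are not independent replicates). With run as a term in the 4 AMO libraries, the replicate block, 4729 of 34468 AATAAA clusters rose with the U1 AMO and 827 fell (edgeR quasi-likelihood test, adjusted p under 0.05). These were 13.72% and 2.40% of the AATAAA clusters, against 13% and 2.05% of all 68692 clusters tested. Only 1 residual degree of freedom remains in this fit, whose p-values therefore rest on the spread pooled over all clusters. All 245 clusters called without the run term were among the 4729, of which they made up 5.18%. A block in all 6 libraries gave 0 calls for AATAAA clusters, with 2901 higher and 39 lower at an unadjusted p under 0.05, which are not calls and have no count over all clusters beside them.

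The 4729 raised AATAAA clusters were mostly weak, with few scrambled AMO reads, which filter and call again favour. Their median level was 1.43 and 1.01 CPM in U1 AMO cells, 0.0757 and 0.0648 CPM in scrambled AMO cells, and 0.0261 and 0 CPM in untreated cells. Together they held 6.37% and 5.60% of reads in U1 AMO cells, against 3.05% and 3.01% in scrambled AMO cells and 2.31% and 1.87% in untreated cells. In 4514 of them (95.5%) both U1 AMO libraries exceeded both scrambled AMO libraries, a separation that the call favours since it uses the same libraries. The AMO groups did not overlap, in either direction, in 26.3% of the AATAAA clusters uncalled in this fit. The 827 that fell were abundant and moved little. Their median log2 fold change was -0.59, and their median level 17.7 and 20.7 CPM in U1 AMO cells, 29.4 and 27.9 CPM in scrambled AMO cells, and 25.9 and 32.4 CPM in untreated cells. The AMO groups did not overlap in 592 of them (71.6%), set beside the same 26.3% of uncalled clusters. Here too the call favours separation, so neither share is a result apart from the call.

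The direction of the calls went with level, and alike for AATAAA and all clusters. Under 0.1 CPM 93.6% of 78 AATAAA clusters rose and 0% fell, against 93.9% and 0% of all 179 clusters. Clusters so weak on average pass the filter only through libraries where they are high, which largely fixes that share. At 0.1 to 1 CPM 18.2% of AATAAA clusters rose and 0.161% fell, against 15.9% and 0.210% of all clusters. At 1 to 10 CPM 11.6% rose and 1.67% fell, against 10.8% and 1.90% of all. At 10 to 100 CPM 4.72% rose and 9.27% fell, against 4.74% and 9.35% of all. At 100 CPM or more 4.39% rose and 7.99% fell, against 3.82% and 8.89% of all. The level includes the U1 AMO libraries, and a small fall can be called only where counts are high. The part of that in the pattern was not tested.

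**Figure D4:**
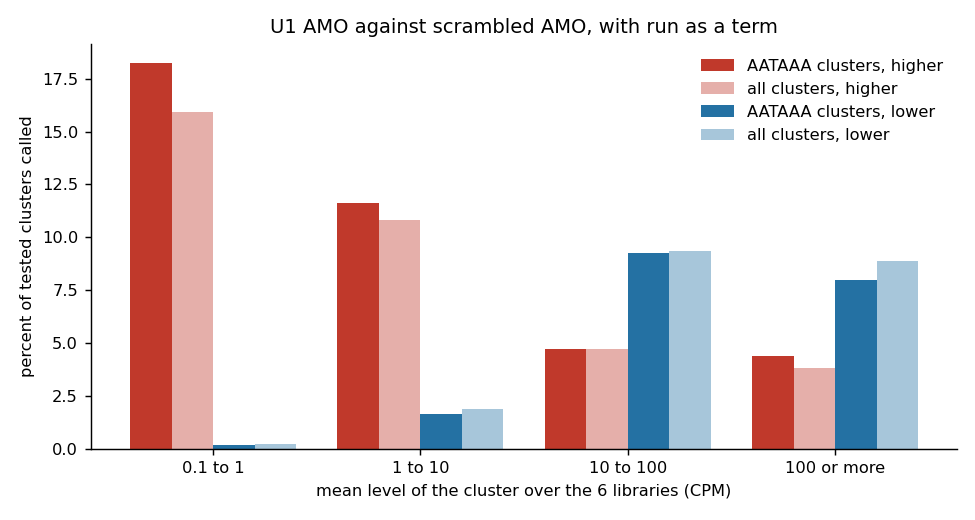
Percent of tested clusters called higher or lower for U1 AMO against scrambled AMO, by mean level over the 6 libraries, in the edgeR fit of the 4 AMO libraries with run as a term. AATAAA clusters (full colour) run beside all clusters (pale) in each level class drawn. They were 18.2% and 15.9% higher at 0.1 to 1 CPM, and 9.27% and 9.35% lower at 10 to 100 CPM. The class under 0.1 CPM is not drawn.

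The named rises are the 5 with the highest log2 fold changes among 53 raised AATAAA clusters that averaged at least 10 CPM over the AMO libraries. The first, on the minus strand at chr11:69391758-69391782, had 791 and 2124 reads in U1 AMO cells, 0 and 1 in scrambled AMO cells, and none in untreated cells. Its ratio of levels, U1 over scrambled AMO, was 3538 (95% counting interval 634 to 139774), with an edgeR adjusted p of 0.0215. All 15 of its positions shared a single AATAAA, with only 26.7% of U1 AMO reads at the strongest, 15 nt away, and mean distances of 16.35 and 16.01 nt in the U1 AMO libraries. This is shorter than the 5th percentile of element means given above.

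The minus-strand cluster at chr1:123462126-123462144 had 374 and 1572 reads in U1 AMO cells, 1 and 1 in scrambled AMO cells and none in untreated cells. Its ratio was 1181 (95% counting interval 326 to 9757, edgeR adjusted p = 0.0215), and cleavage peaked 20 nt from its AATAAA. On the minus strand at chr8:124430112-124430134 there were 496 and 1644 reads in U1 AMO cells, 1 and 2 in scrambled AMO cells and none in untreated cells. Its ratio was 866 (296 to 4201, edgeR adjusted p = 0.0215), and 63.3% of U1 AMO reads ended at 25 nt. These first 3 clusters thus had at most 3 reads in the 4 libraries without U1 block.

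The plus-strand cluster at chr5:143723224-143723247 had 1265 and 2326 reads in U1 AMO cells, 4 and 2 in scrambled AMO cells, and 3 and 0 in untreated cells. It averaged 61.4 ± 29.3 CPM with the U1 AMO and 0.0919 ± 0.0842 CPM with the scrambled AMO (SD, n = 2 each), a log2 fold change of 9.55 ± 1.04 (SE, edgeR adjusted p = 0.0273). Its cleavage was the most scattered of the 5, with 18.8% of U1 AMO reads at the strongest of 22 positions. The minus-strand cluster at chr8:36027014-36027044 had 397 and 1288 reads in U1 AMO cells, 1 and 2 in scrambled AMO cells and none in untreated cells. Its ratio was 682 (233 to 3309, edgeR adjusted p = 0.0215), and its strongest position lay 26 nt from an AATAAA.

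The named falls come from the fit with run as a term, since no fall passed without it, and are the 5 lowest log2 fold changes of 602 eligible clusters. In all 5 the AMO groups overlapped, since the scrambled AMO library of one run lay below the U1 AMO library of the other. Within each run the U1 AMO library was the lower at all 5, and the fall was larger in the run of replicate 1 each time. The minus-strand cluster at chr4:40290052-40290053, with 99.9% of U1 AMO reads at 18 nt, had 0.195 and 65.8 CPM in U1 AMO cells, 10.3 and 108 CPM in scrambled AMO cells, and 17.8 and 10.3 CPM in untreated cells. Its log2 fold change was -1.66 ± 0.44 (SE, edgeR adjusted p = 0.0163). The plus-strand cluster at chr2:154692966-154692999 had 66.6 and 432 CPM in U1 AMO cells, 279 and 525 CPM in scrambled AMO cells, and 383 and 447 CPM in untreated cells, a log2 fold change of -1.18 ± 0.27 (SE, edgeR adjusted p = 0.00566). The other 3, all on the plus strand at chr9:62225618-62225644, chr17:63697971-63697979 and chr1:150250156-150250159, had log2 fold changes of -1.29, -1.25 and -1.22. Without U1 AMO replicate 1 and without the run term, the log2 fold change of all 5 turned positive, to between 0.054 and 0.18. That fit sets U1 AMO replicate 2 against scrambled AMO libraries of both runs.

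**Figure D5:**
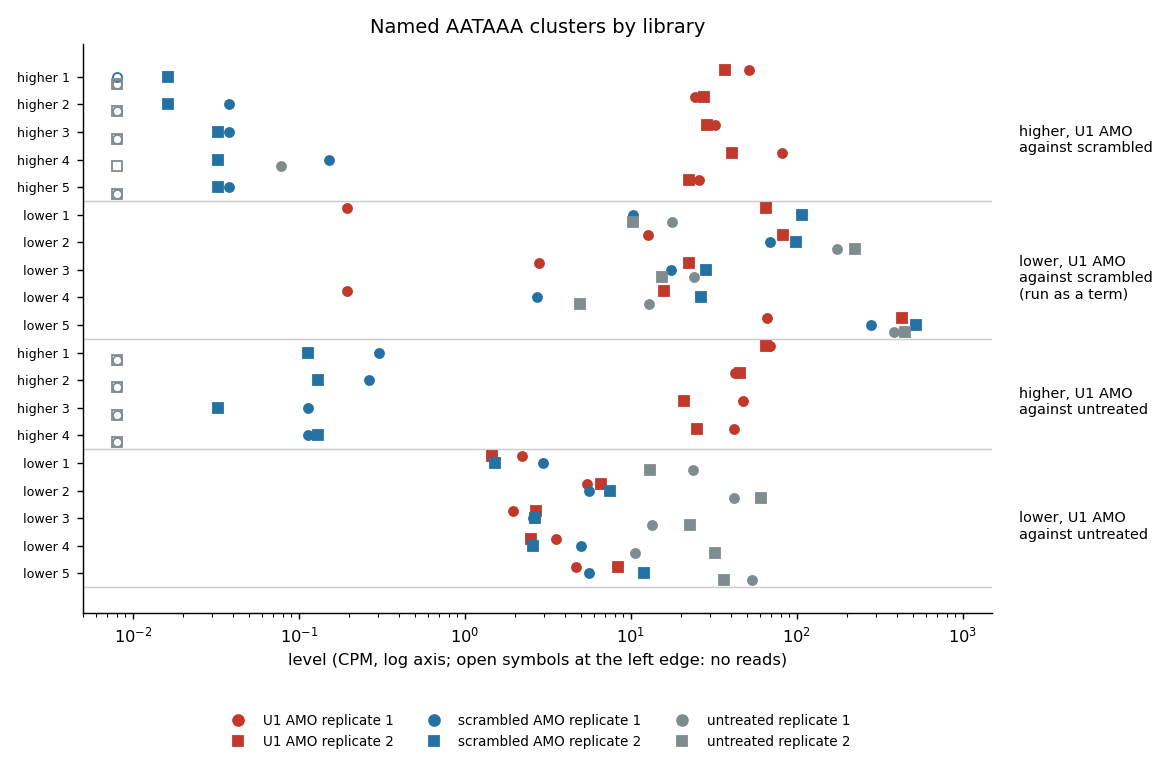
Level in CPM (log axis; open symbols mark libraries with no reads) of the named AATAAA clusters in each library, in 4 blocks from top to bottom as labelled. Rises separate the 2 U1 AMO libraries from the scrambled AMO or untreated ones by over 100-fold, falls against the scrambled AMO overlap between groups, and in falls against untreated cells both AMO groups lie together at the low end.

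Against untreated cells, 1766 AATAAA clusters rose with the U1 AMO and 243 fell (edgeR quasi-likelihood test over 3 groups, adjusted p under 0.05). These were 4.46% and 0.614% of the AATAAA clusters tested, against 4.29% and 0.515% of all clusters. DESeq2 gave 4021 rises and 1257 falls, a larger share of falls. These were 10.2% and 3.18% of AATAAA clusters, against 9.89% and 2.6% of all clusters. This comparison and the one against the scrambled AMO share the U1 AMO libraries, and untreated cells differ in run. The raised clusters had a median of 2.79 and 1.97 CPM in U1 AMO cells, 0.114 and 0.0810 CPM in scrambled AMO cells, and 0 and 0 CPM in untreated cells. Filter and call again favour such low values in untreated cells. The lowered ones had a median of 7.72 and 7.22 CPM in U1 AMO cells, 9.73 and 8.41 CPM in scrambled AMO cells, and 25.2 and 30.2 CPM in untreated cells. In the lowered set the scrambled AMO libraries lay close to the U1 AMO libraries. The count of 2009 calls fell without U1 AMO replicate 2 or untreated replicate 2 and rose without untreated replicate 1. Those fits leave 1 library in a group and filter the clusters anew, so their counts are not given. With a replicate block the count was 0, for AATAAA as for all clusters.

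Among 144 eligible rises against untreated cells, the highest log2 fold change was at chr14:52700835-52700854 on the minus strand. This cluster had 68.8 and 65.7 CPM with the U1 AMO and was without reads in untreated cells. It was at least 2181-fold higher when 3 reads over the group are taken as the floor (edgeR adjusted p = 0.00869). With the scrambled AMO it had 0.303 and 0.113 CPM. The cluster at chr12:21419256-21419269, also on the minus strand, had 42.7 and 45.5 CPM in U1 AMO cells, 0.265 and 0.130 CPM in scrambled AMO cells and no read in untreated cells, at least 1477-fold higher. The chr11 cluster described above was at least 1319-fold higher, and those at chr13:119174180-119174199 and chr5:122950998-122951027 (both minus) at least 874-fold and 940-fold higher, on the same floor.

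The 5 falls named against untreated cells, of 161 eligible, were low with both AMOs. The minus-strand cluster at chr3:30575140-30575164 had 2.21 and 1.47 CPM in U1 AMO cells, 2.95 and 1.52 CPM in scrambled AMO cells, and 23.8 and 13.1 CPM in untreated cells. Its log2 fold change, U1 AMO over untreated, was -3.45 ± 0.53 (SE, edgeR adjusted p = 0.0264), and its strongest position lay 33 nt from AATAAA. The plus-strand cluster at chr11:87369318-87369328 had 5.45 and 6.62 CPM in U1 AMO cells, 5.64 and 7.53 CPM in scrambled AMO cells, and 41.7 and 60.7 CPM in untreated cells, a log2 fold change of -3.13 ± 0.39 (SE, edgeR adjusted p = 0.0178). Those at chr4:138084582-138084598 (plus), chr6:115790702-115790763 (minus) and chr8:96662925-96662941 (plus) had log2 fold changes of -3.00, -2.87 and -2.84.

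Scrambled AMO against untreated gave no AATAAA call in edgeR's quasi-likelihood test, where 0% of all 80119 clusters passed in either direction. At an unadjusted p under 0.05, 3152 AATAAA clusters were higher with the scrambled AMO and 2177 lower. These are not calls, and no count over all clusters was made at that threshold. DESeq2 gave 598 rises and 517 falls, 1.51% and 1.31% of AATAAA clusters, against 1.67% and 1.02% of all clusters. It gave no adjusted p for 21747 of the 80119 clusters, which stay in these shares. The median log2 fold change of tested AATAAA clusters was 0.01 for U1 AMO over scrambled AMO, against -0.02 for all tested clusters. It was 0.18 for U1 AMO over untreated, against 0.24 for all, and 0.07 for scrambled AMO over untreated, against 0.15 for all.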

How the data were processed

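The 6 libraries of 3′ ends from V6.5 cells, 2 per group, were analysed. Per the labels' protocols, RNase T1 fragments of poly(A)+ RNA were copied into cDNA, circularised and amplified by PCR. Molecular identifiers are not mentioned, so intervals and floors reflect counting error alone. Per the submitters' processing notes, cutadapt and Bowtie were used with build mm9; the sources used here give no versions or settings and do not describe the filter on positions. The deposited files list, per library, stranded positions with raw counts of reads, plus the deposited hexamer, its distance in nt and column 8, a deposited score from 0 to 10 of unknown meaning.

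CPM, elements and clusters were computed here with Python 3.11.15, numpy 2.4.6, pandas 2.3.3 and scipy 1.17.1; figures used matplotlib 3.10.9. Clusters (joined at 24 nt) were tested with edgeR 4.0.16 in R 4.3.3 (TMM, filterByExpr, quasi-likelihood, all 6 libraries and 3 groups), adjusting over all tested clusters. Standard errors are the fold change on the log2 scale over the root of its F value. DESeq2 1.42.0, other scalings, filters, features, a replicate block and leaving out each library were alternatives. The edgeR fits without and with the run term were run on simulated counts before use. Those counts held no run effect and no changed cluster that started near 0 reads, so such cases were not checked. In the U1 and scrambled AMO groups a replicate number marks a shared run, and same-numbered libraries deviated together (r = 0.802), so the block pairs them; untreated libraries (r = -0.362 with U1 AMO, -0.419 with scrambled AMO) are not paired with either.

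Groups of 2 libraries were compared by two-sided exact permutation tests. Hexamer sets were compared by exact sign-flip tests over 6 libraries, except presence in both libraries, tested over the 3 groups, a choice made after seeing the data. Named sites were the 6 highest elements, the 3 with the most and the 3 with the fewest positions at 100 CPM or more, and the 5 calls with the highest and the 5 with the lowest log2 fold change at a mean of 10 CPM or more; chromosome 18 was left out of naming. The members, lists and tests were chosen with earlier results of these data known.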

Additional observations from a re-analysis of the deposited data

How the results depend on the processing

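The counts of calls changed with many settings. For U1 AMO against scrambled AMO (245 AATAAA clusters), RLE scaling gave 368 calls, DESeq2 1626, no filter on low counts 1492, the 4 AMO libraries alone 1230, single positions 0, and leaving out 1 library 0 to 1523. The replicate block gave 5556 in 4 libraries, 0 in 6, and, chosen after seeing the data, 8966 single positions and 5141 elements. Of AATAAA single positions 6.84% rose and 0.979% fell with the block, against 7.04% and 0.997% of all. For elements these were 12.97% and 1.65%, against 12.1% and 1.35% of all. For U1 AMO against untreated (2009) DESeq2 gave 5278, no filter 3548, 4 libraries alone 641, single positions 807, the block 0 in either form, and leaving out 1 library 603 to 4442. For scrambled AMO against untreated (0) DESeq2 gave 1115, no filter 521, and leaving out 1 library 0 to 9. With untreated replicate numbers crossed, a block added after seeing the data gave 2413 calls for the U1 AMO and 0 for the scrambled AMO. For the U1 AMO, 5.75% of AATAAA clusters rose and 0.988% fell in that fit, against 5.61% and 0.839% of all.

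Counted over distinct positions at equal depth, the share of AATAAA against untreated became -1.86 (U1 AMO) and -2.54 percentage points (scrambled AMO), mean distance -0.0836 nt for U1 against scrambled AMO, and column 8 0.0355 (U1 AMO) and 0.0316 (scrambled AMO) against untreated. With chromosome M kept the share differences were 0.236 and 0.287 points. Against ATTAAA alone, the AATAAA differences were 0.271 nt, -2.74 points (reversed), 0.203 in column 8, 0.278 positions per element and 3.38 points in presence. At column 8 of 5 or less they were 0.194 nt, 0.0607 in column 8, 1.06 positions and 14.1 points in presence. Each passed 0.05 with 6 libraries as units, which read largely the same sites. With presence tested over 3 groups, as added after seeing the data, presence did not pass in either setting (adjusted p = 0.25), and the others gave 0.0391 against ATTAAA and 0.0521 at column 8 of 5 or less. Leaving out 1 library, the log2 fold changes of the named falls ran from -8.40 to 1.84 (chr4), -2.84 to 0.065 (chr9), -3.16 to 0.054 (chr17), -6.38 to 1.73 (chr1) and -2.72 to 0.18 (chr2): all 5 turned without U1 AMO replicate 1, chr4 (0.15) and chr1 (0.13) included, and those 2 also without scrambled AMO replicate 2. These fits have no run term, so leaving out 1 AMO library leaves the other AMO library of its run unmatched. Within each run the U1 AMO library lay below the scrambled AMO library at all 5. The part of the lost match in the turns was not tested. With 2 libraries per group, values compared by permutation cannot pass 0.05 at any depth, and the shallowest library, U1 AMO replicate 1, sets the equal depth.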
